A study of Homo sapiens with 8 samples.

Results

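Expression of 10 genes was followed on arrays of 2 human liver cell lines given vehicle or CM272, which blocks DNMT1, the maintenance DNA methyltransferase, together with G9a, an enzyme that methylates histone H3. The genes are 4 members of the USP17L family of deubiquitinases (USP17L10, USP17L12, USP17L15 and USP17L9P) and 6 other genes known as targets of the embryonic transcription factor DUX4 (ZNF280A, TRIM43B, TRIM43, ZSCAN4, LEUTX and KHDC1L). Every probe set with one of these symbols in the platform annotation was taken, which gave 11 probe sets with 10 distinct sets of values, out of 16098 probe sets with a symbol and 14884 symbols in all. The list was drawn up from the response of LX2 cells, so the LX2 values of these genes are given as a description with no test, and only HepG2 offers a comparison that played no part in the choice.

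LX2 is a human line of hepatic stellate cells. These are the liver cells that turn into matrix-producing myofibroblasts in injury. HepG2 is a line of hepatocellular carcinoma. Each line had 2 control arrays, from cells given 0.1% DMSO for 48 h, and 2 arrays from cells given 400 nM CM272 for 48 h. LX2 grew in 2% and HepG2 in 10% fetal bovine serum, so line and serum cannot be told apart. The labels do not say whether replicates came from separate cultures, and p-values then measure only the spread between these arrays.

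DUX4 is a homeobox transcription factor encoded within a repeat near the end of the long arm of chromosome 4. It is switched on for a short time in the cleavage-stage embryo, where it activates genes of the first wave of embryonic transcription. In most adult cells the repeat is kept silent by DNA methylation, by methylation of histone H3 lysines and by the chromatin protein SMCHD1, and loss of that silencing in muscle underlies facioscapulohumeral dystrophy. USP17L genes encode enzymes that remove ubiquitin and are known from cytokine-treated blood cells. The USP17L members followed here lie in a tandem array of near-identical copies on the short arm of chromosome 4. No probe set was named for DUX4 in the annotation, and DUX4 itself was not analysed here.

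The promoters of the members are shown because CM272 is aimed at DNA methylation and because DUX4 binds a known motif. RefSeq's promoter table for GRCh38.p14 (250 bases before to 50 bases after a start) held 5 promoters for 4 of the members: ZNF280A, ZSCAN4, KHDC1L and a pair for LEUTX. The ZNF280A promoter lay at chr22:22520221-22520520 on the minus strand, and CpG sites are in capitals.
ZNF280A: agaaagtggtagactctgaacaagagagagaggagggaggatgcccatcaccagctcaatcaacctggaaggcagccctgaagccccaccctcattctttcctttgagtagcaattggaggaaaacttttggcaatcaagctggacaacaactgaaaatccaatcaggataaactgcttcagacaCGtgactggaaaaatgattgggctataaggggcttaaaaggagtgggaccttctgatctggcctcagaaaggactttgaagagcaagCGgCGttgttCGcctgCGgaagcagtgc
It held 5 CpG sites, against a median of 14 over the 35116 promoters of the table, and 33.7% of those promoters held 5 or fewer. Its GC content was 49.0%, against a median of 58.7%. The other member promoters held 2 to 5 CpG sites, so that each of the 5 lay below the median.

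The DUX4 homeobox motif was searched on both strands. It was found in 0 of the 5 member promoters and in 55 of 35116 promoters (0.157%). A looser form, TAA and AATCA with any 3 bases between them, was found in 1 member promoter and in 312 of all promoters (0.888%). The match was in the LEUTX promoter at chr19:39778604-39778903, on the strand opposite to the gene, from 51 bases before the start, and is in capitals here.
LEUTX: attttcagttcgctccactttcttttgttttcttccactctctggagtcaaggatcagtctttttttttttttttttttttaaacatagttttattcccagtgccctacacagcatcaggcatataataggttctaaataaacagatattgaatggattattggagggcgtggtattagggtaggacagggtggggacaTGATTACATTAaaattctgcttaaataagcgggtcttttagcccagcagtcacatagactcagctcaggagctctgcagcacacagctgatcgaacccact
Among a list of 56 other DUX4 targets, 46 had promoters in the table, 51 promoters in all, of which 6 held the motif and 11 the looser form. These matches are a description of letters in the window and do not show binding.

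USP17L12, USP17L9P and USP17L15 had the widest gaps between treated and control LX2 cells among the members, while USP17L10 had a smaller one than ZNF280A. USP17L12 and USP17L9P had the same value on each array, because their probe sets share all their values, and count as one measurement. Their log2 values were 5.09 and 4.76 on the LX2 control arrays and 9.62 and 9.62 on the LX2 CM272 arrays. In HepG2 they were 3.82 and 3.47 on the control arrays and 3.66 and 3.74 on the CM272 arrays. Both treated LX2 arrays thus lay far above the other 6, and the HepG2 arrays lay below untreated LX2 with no separation by treatment. The LX2 difference was log2 4.69 (SE 0.17, n = 2 a group), a 25.9-fold difference.

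USP17L15 had log2 values of 3.26 and 3.10 on LX2 control, 7.31 and 7.28 on LX2 CM272, 1.49 and 1.90 on HepG2 control and 1.80 and 2.40 on HepG2 CM272 arrays. Its control values in both lines lay under log2 4, the brightness a gene had to pass on both arrays of some group to be tested, so that it passed only through treated LX2. The LX2 difference of log2 4.12 (SE 0.21) starts from that dim level, and its fold is not exact. USP17L10 had 4.47 and 4.31 on LX2 control, 6.21 and 6.46 on LX2 CM272, 3.66 and 3.13 on HepG2 control and 4.72 and 4.03 on HepG2 CM272 arrays. It differed by log2 1.95 (SE 0.25) in LX2, and its treated arrays stood above its controls in both lines.

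USP17L9P, a transcribed pseudogene of the family, had a second probe set with other values. It read 2.28 and 2.63 on LX2 control, 2.61 and 4.10 on LX2 CM272, 1.56 and 1.57 on HepG2 control and 1.38 and 1.37 on HepG2 CM272 arrays. It was too dim to test, and its LX2 groups overlapped. Since the USP17L copies are near-identical, a probe set can read RNA of several of them, and no value here can be assigned to 1 copy. In total RNA from a whole culture, more expressing cells and more RNA per cell cannot be told apart.

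**Figure D1:**
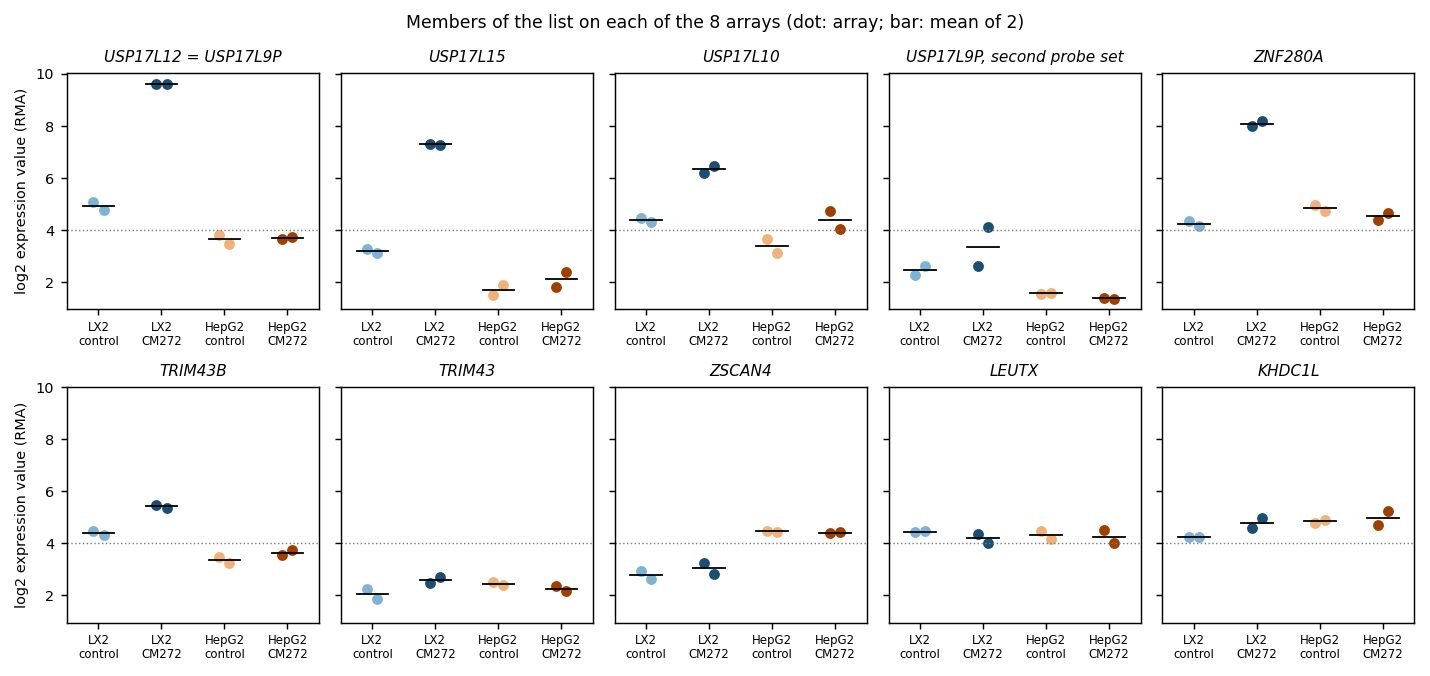
Log2 RMA value (vertical axis) of each probe set of the members on the 8 arrays, in 4 groups of 2 (dots: arrays; bars: means; dotted line: log2 4). USP17L12, USP17L15, USP17L10 and ZNF280A stand apart on the LX2 CM272 arrays, while ZSCAN4 and LEUTX do not.

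ZNF280A, a zinc finger protein gene that lies within the immunoglobulin lambda locus on chromosome 22, was the member outside the USP17L family with the widest gap. Its log2 values were 4.36 and 4.14 on LX2 control and 8.01 and 8.17 on LX2 CM272 arrays, a difference of 3.84 (SE 0.16), or 14.4-fold. In HepG2 they were 4.96 and 4.73 on control and 4.40 and 4.67 on CM272 arrays. Untreated HepG2 was thus above untreated LX2, and both treated HepG2 arrays lay below both of their controls. Its order of groups was LX2 CM272, HepG2 control, HepG2 CM272 and LX2 control, and no neighbours in that order overlapped.

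TRIM43B and TRIM43 are neighbouring genes of the tripartite motif family, many of whose proteins act as ubiquitin ligases. TRIM43B had log2 values of 4.47 and 4.34 on LX2 control and 5.48 and 5.37 on LX2 CM272 arrays, a difference of 1.03 (SE 0.15). In HepG2 it had 3.46 and 3.25 on control and 3.54 and 3.73 on CM272 arrays. TRIM43B was above its controls in both lines, by a smaller amount in HepG2, where it lay under log2 4 on all arrays. TRIM43 was too dim to test, with values from 1.85 to 2.72 over the 8 arrays, a difference of 0.55 in LX2 and of -0.19 in HepG2.

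The other 3 members, ZSCAN4, LEUTX and KHDC1L, differed by log2 0.53 or less in either direction in LX2. ZSCAN4, a zinc finger protein known for its part in telomere lengthening in mouse embryonic stem cells, had log2 values of 2.94 and 2.62 on LX2 control and 3.25 and 2.84 on LX2 CM272 arrays, which overlapped. Its HepG2 arrays lay higher, at 4.47 and 4.44 on control and 4.38 and 4.42 on CM272 arrays, and it passed the brightness filter through HepG2 alone. LEUTX, a paired-like homeobox factor of the early embryo, had 4.44 and 4.48 on LX2 control and 4.38 and 4.01 on LX2 CM272 arrays, a difference of -0.26 (SE 0.20). LEUTX was the 1 member whose treated LX2 arrays both lay below both controls, and its HepG2 arrays overlapped, at 4.47 and 4.17 on control and 4.50 and 4.03 on CM272 arrays. KHDC1L, a gene of the KH domain family of oocyte and embryo proteins, had 4.25 and 4.24 on LX2 control arrays. It had 4.58 and 4.97 on LX2 CM272 arrays, both above both controls, a difference of 0.53 (SE 0.20). Its HepG2 arrays, at 4.78 and 4.91 on control and 4.73 and 5.23 on CM272 arrays, overlapped.

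Across the members, both treated LX2 arrays lay above both controls for 8 of 10 symbols (7 of 9 distinct profiles), below them for LEUTX, and overlapped with them for ZSCAN4. Over all 12239 genes tested, 23.5% had both treated LX2 arrays above both controls and 28.6% had them below. By limma's adjusted p under 0.05, 1031 genes (8.42%) were called in LX2, 464 higher (3.79%) and 567 lower (4.63%). When each array was centred on its median, the split was 336 higher and 766 lower. Since the members were picked on this contrast, nothing is read from their count against these shares.

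In HepG2 no member passed the threshold of limma, and USP17L10 was the 1 with an unadjusted p under 0.05. Of 10 symbols, 2 (USP17L10 and TRIM43B) had both treated arrays above both controls, 3 had them below (ZNF280A, ZSCAN4 and TRIM43), and the rest overlapped. Of all genes tested, 20.7% had both treated HepG2 arrays above and 28.2% below both controls, so 2 and 3 of 10 are near the background. By limma 1 of 12239 genes (0.00817%) was called in HepG2, C5AR1, with a difference of -1.89. Before adjustment, 583 genes were higher and 820 lower there at a limma p under 0.05.

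USP17L10 had the widest HepG2 difference of the members, log2 0.98 (SE 0.25), higher on 2 of 2 arrays, and did not pass limma's test (adjusted p = 0.239, 0.155 to 0.705 over the alternative settings). Its unadjusted 95% interval ran from 0.43 to 1.53. For USP17L12 and USP17L9P the HepG2 difference was 0.05 (limma adjusted p = 0.947), with an interval from -0.33 to 0.43. USP17L15, which was bright enough only in treated LX2, read 0.40 higher in treated than in control HepG2, at levels of 2.40 or less, and this is given as a value only. USP17L12 also lay under log2 4 on every HepG2 array, so that its HepG2 test bears on a dim signal.

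ZNF280A differed by -0.31 in HepG2 (limma adjusted p = 0.502), with an interval from -0.68 to 0.06. TRIM43B, likewise under log2 4 there, differed by 0.28 (limma adjusted p = 0.502, interval -0.05 to 0.61). KHDC1L, ZSCAN4 and LEUTX differed by 0.13, -0.06 and -0.05, with limma adjusted p-values of 0.862, 0.940 and 0.951. A p that misses the threshold does not show that the treated and control cells had equal levels, and an exact permutation test of 2 arrays against 2 cannot go below 0.333. The difference of the effect between the lines (HepG2 minus LX2) was -4.64 (SE 0.24) for USP17L12, -4.15 (SE 0.23) for ZNF280A, -3.72 (SE 0.30) for USP17L15, -0.96 (SE 0.35) for USP17L10 and -0.74 (SE 0.21) for TRIM43B. It uses the LX2 arrays on which the genes were picked and is a description.

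**Figure D2:**
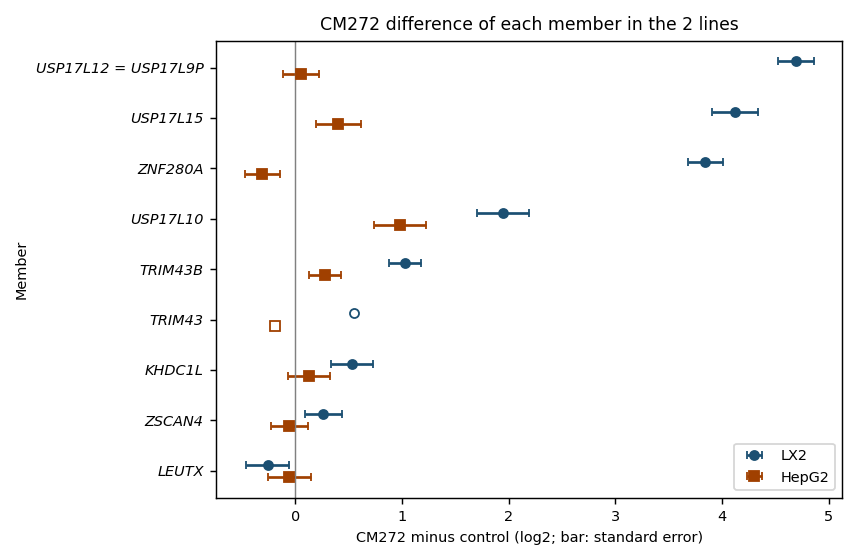
Difference of CM272 from control (horizontal axis, log2) for each member in LX2 (circles) and HepG2 (squares), with bars for limma's standard error; open symbols mark TRIM43, too dim to test. USP17L12, USP17L15 and ZNF280A lie near log2 4 in LX2 and between -0.31 and 0.40 in HepG2.

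The 4 USP17L members are only the named portion of a longer run of probe sets. Probe set numbers on this array mostly follow position, since 98.9% of 14068 consecutive named pairs on the same chromosome were in rising order. From USP17L10 up to the next named gene, DRD5, a dopamine receptor gene, the numbers held 22 probe sets, of which 5 had a symbol (all of them members) and 17 had none. Of those 17, 15 differed by over log2 4 in LX2, from 4.90 to 5.39, a selection made after their values were seen. Their log2 values ran from 4.12 to 5.25 on LX2 control, from 9.36 to 10.3 on LX2 CM272 and from 2.60 to 4.52 on HepG2 arrays, with HepG2 differences from -0.20 to 0.23. They held 9 distinct profiles, and 7 of the probe sets in the run shared one and the same profile. On the whole array 22 probe sets differed upwards by over log2 4 in LX2, and 18 of these lay in the run. The probe sets without a symbol are not named here, and how many gene copies they stand for was not tested.

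**Figure D3:**
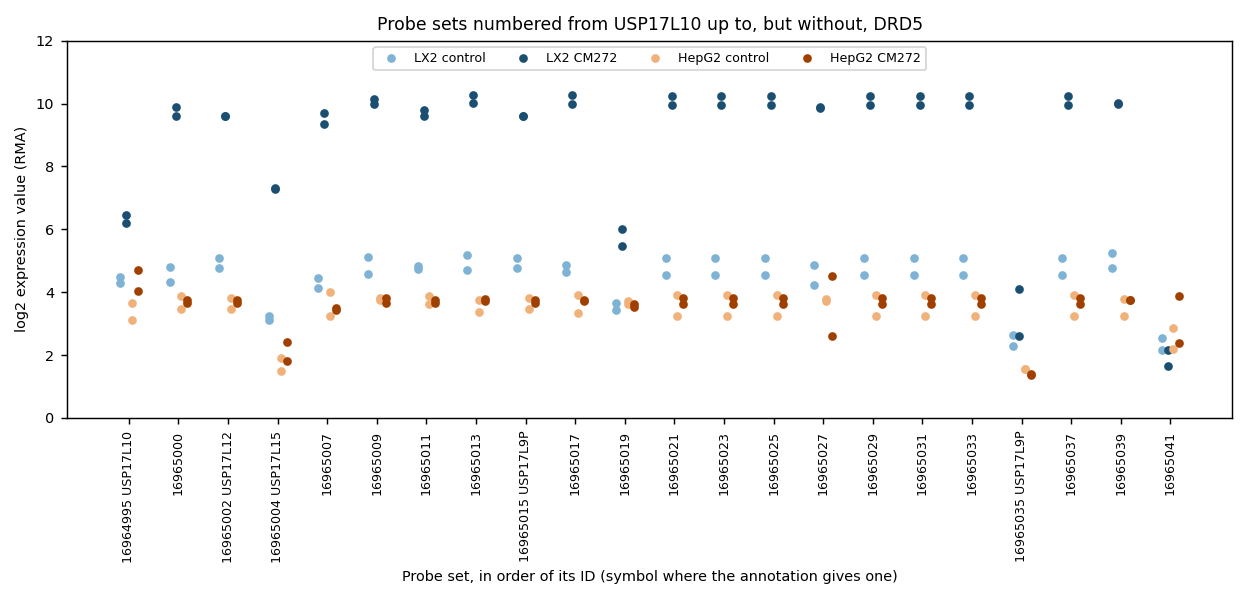
Log2 RMA value (vertical axis) of the 22 probe sets numbered from USP17L10 up to DRD5 (horizontal axis, in order of number) on the 8 arrays, coloured by group. The LX2 CM272 arrays of the 15 probe sets without a symbol that stand out lie between 9.36 and 10.3, above all of their other arrays.

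The genes around the members were looked at in RefSeq's order, up to 5 measured genes on each side. Many of them are not close. Starts of tested neighbours lay 197786 to 1081498 bases from the USP17L genes and 29315 to 847724 from ZNF280A. They lay 17770 to 1819993 bases from KHDC1L and, apart from TRIM43B, 189293 to 616415 from TRIM43. Beside the USP17L genes 0 of 9 tested neighbours were called in LX2 by limma, with differences from -0.47 (ZNF518B, the 1 gene at an unadjusted p under 0.05) to 0.38. Beside ZNF280A 0 of 10 were called by limma, with differences from -0.46 (GGTLC2, likewise the 1 gene before adjustment) to 0.22 (ZNF280B, of its own family). Beside KHDC1L 0 of 5 tested neighbours were called by limma, and MIR30A was the 1 before adjustment (0.89). Beside TRIM43, apart from TRIM43B, 1 of 9 passed, against 8.42% of all genes tested. It was the zinc finger gene ZNF2 (0.59, SE 0.14, limma adjusted p = 0.037). That call was lost in 11 of 17 alternative settings, with adjusted p-values up to 0.264, among them leaving out any single array other than the second LX2 CM272 array. ADRA2B, an adrenergic receptor gene, was the other TRIM43 neighbour with an unadjusted p under 0.05 (0.60). In HepG2 limma called 0 of these neighbours, and 3 had an unadjusted p under 0.05 (TRMT44 and ZNF280B lower, LINC00472 higher). Neighbours singled out by an unadjusted p were named after their values were seen.

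Outside the member list, the tested genes with the profile most like USP17L12 over the 8 arrays were SNAI1, TEX14, FOSB, PCDH10 and PTGS2. Likeness was the root mean square log2 difference after each gene's LX2 control mean was subtracted. For the member USP17L15, left out of this ranking, it was 0.39. It was 0.46 for SNAI1, a repressor known from epithelial-mesenchymal transition, which differed by 3.86 in LX2 and -0.18 in HepG2. It was 0.53 for TEX14, a protein of the bridges between germ cells, which differed by 5.37 in LX2 and -0.24 in HepG2. FOSB, an AP-1 subunit, stood at 0.79, PCDH10, a protocadherin, at 1.03 and PTGS2, the inducible cyclooxygenase, at 1.29. For ZNF280A the nearest were FOSB (0.51), which differed by 4.16 in LX2, then GTF2B, a general transcription factor (0.71), LINC00161, a non-coding RNA (0.75), NPPC, a natriuretic peptide (0.75), and DLL4, a Notch ligand (0.90). These genes were found by their likeness on the same arrays, and their values are a description.

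Of 56 other genes known as DUX4 targets, 32 had a symbol on the array and 15 were bright enough to test. By limma 0 of the 15 passed in LX2, where 1 was higher at an unadjusted p under 0.05, and the median difference was 0.11, from -0.29 to 0.53, against -0.02 over all genes. Both treated LX2 arrays lay above both controls for 4 of the 15 and below for 2, against 23.5% and 28.6% of all genes tested, so the first count is near its background. The 1 gene was PRAMEF15, of the PRAME family of germline antigens, with log2 values of 4.34 and 4.07 on LX2 control and 4.56 and 4.91 on LX2 CM272 arrays (difference 0.53, SE 0.19, limma adjusted p = 0.116). PRAMEF20 of the same family differed by 0.39, RFPL2, of the ret finger protein-like family, by 0.27 and MBD3L5, of a family related to methyl-CpG binding proteins, by -0.29. In HepG2 limma called 0 of the 15, the median was -0.02, and 1 was higher at an unadjusted p under 0.05, ARGFX, a homeobox gene, named after its value was seen (0.50, limma adjusted p = 0.410).

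The other 17 measured targets were dim, with values between 1.23 and 4.23 over the 8 arrays. Their LX2 differences ran from -0.09 to 0.87, with a median of 0.28. Dim genes of other lists also had positive LX2 medians. These were 0.195 for 4 pluripotency genes, 0.165 for 12 germ cell genes, 0.13 for 3 silencing factors and 0.05 for 3 USP deubiquitinases. With no brightness filter limma called 1 of the 32 in LX2, against 760 of all 14884 genes. That gene was TRIM49, a relative of TRIM43 (0.56, limma adjusted p = 0.049). KDM4E, a dim histone demethylase gene, differed by 0.28 in LX2. Without the second LX2 CM272 array it differed by 0.63, a setting in which calls over all genes also rose.

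Genes of DUX4 copies and of factors that silence or otherwise act on them were taken as a further list. Of 35 genes 24 were measured and 21 tested. No DUX4 copy was among the measured genes, so every tested gene was one of the factors. By limma 1 of the 21 passed in LX2, against 8.42% of all genes tested. It was CBX3, a heterochromatin protein that binds methylated histone H3, which fell by 1.02 (SE 0.20, limma adjusted p = 0.018). With each line fitted alone, 0 of the 21 passed, against 198 of 12239 genes. Leaving out single arrays, the LX2 controls among them, moved the count, as it moved that over all genes. The CBX3 difference ran from -1.33 to -0.71 over 17 settings. SMCHD1, the chromatin protein of the DUX4 repeat, differed by -0.49, MBD2, a reader of methylated DNA, by -0.51, the deacetylase HDAC1 by -0.38 and UHRF1, the partner of DNMT1, by 0.37, none past the threshold.

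The transcripts of the enzymes that CM272 inhibits differed little. EHMT2, which encodes G9a, differed by 0.02 in LX2 and 0.37 in HepG2, EHMT1 by -0.06 and 0.15, and DNMT1 by 0.24 and -0.05, and limma called none of them. These are transcript levels and do not measure enzyme activity. In HepG2 limma called 0 of the 21 genes of the list, and EHMT2 and the DNA methyltransferase DNMT3A (0.33, named after its value was seen) were higher before adjustment at p under 0.05.

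The relatives of the members were read next. In the ZNF280 family limma called 0 of 3 in LX2, with 0 at an unadjusted p under 0.05, and 0 of 3 in HepG2, with 2 lower at that level. ZNF280B differed by 0.22 in LX2 and -0.35 in HepG2, ZNF280C by -0.02 and -0.44, and ZNF280D by -0.29 and 0.15.

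Of 41 tested deubiquitinases of the USP family outside USP17L, limma called 0 higher and 9 lower in LX2, against 3.79% higher and 4.63% lower of all genes tested, with a median of -0.18 against -0.02. USP12 fell by 0.86, USP46 by 0.76, USP25 by 0.72, USP34 by 0.71, USP42 by 0.68 and USP14 by 0.68. USP13 fell by 0.65, USP7, which acts on MDM2 and p53, by 0.61 and USP40 by 0.60. With each line fitted alone the count was 0, where 66 of all 12239 genes were called lower, against 567 in the main fit. Leaving out single arrays, the LX2 controls among them, moved the count, as it moved that over all genes. In HepG2 limma called 0 of the 41, with 1 higher (USP18, an interferon-induced enzyme, 0.75, named after its value was seen) and 4 lower before adjustment at p under 0.05, and a median of -0.15.

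Genes of pluripotency and of germ cells, which are also active in embryo or germline, were compared in the same way. Limma called 0 of 8 tested pluripotency genes in either line, with 0 in LX2 and 1 in HepG2 (LIN28A, lower, named after its value was seen) at an unadjusted p under 0.05. Their median difference was 0.28 in LX2 and 0.24 in HepG2. In LX2, DPPA5 differed by 0.32, PRDM14, a germ cell factor, by 0.30 and TFCP2L1, a transcription factor of the naive state, by 0.29. LIN28B, an inhibitor of let-7 maturation, differed by 0.34, but its LX2 values lay between 2.20 and 2.96 and it passed the brightness filter through HepG2 alone. Without the first LX2 CM272 array its difference was -0.02 and that of PRDM14 was -0.05, and without the second LIN28B differed by 0.69 and was called by limma (adjusted p = 0.020). Of 5 tested germ cell genes limma called 0 in either line, and 0 at an unadjusted p under 0.05, with medians of 0.17 and 0.13. SOX30, a regulator of spermatid development, differed by 0.37 in LX2 and 0.39 in HepG2.

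**Figure D4:**
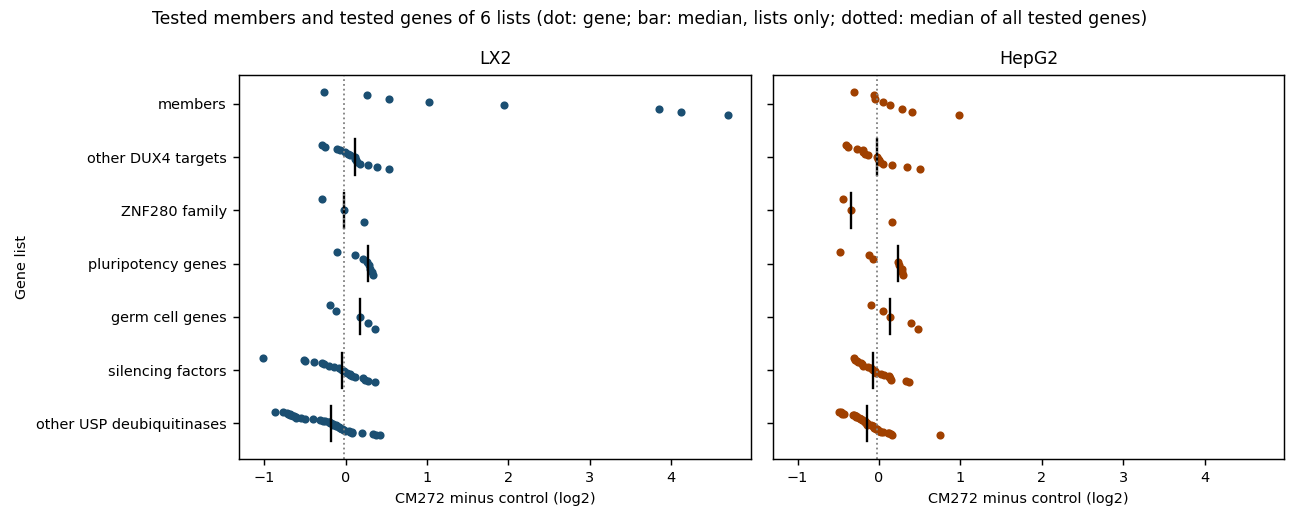
Difference of CM272 from control (horizontal axis, log2) of each tested gene (dots) of the members and of 6 gene lists (vertical axis) in LX2 and HepG2, with bars at list medians and a dotted line at the median of all genes, -0.02 in both lines. The members, which were picked on LX2, reach log2 4.69 there, and the genes of the lists lie between -1.02 and 0.53. That contrast follows from the choice and is a description.

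Marker levels followed the labelled lines, apart from FN1. Each of 8 measured hepatocyte markers, such as ALB, was higher in untreated HepG2 than in untreated LX2, with a median level of 12.3 against 3.73. Of 5 measured stellate or fibroblast markers 4 were higher in LX2 and 1, FN1, in HepG2, and LOX was lower in treated LX2 by limma. Of 6 leukocyte markers 2 were measured, and their summed level was 15.4 on both LX2 control arrays and 16.2 to 16.8 on the LX2 CM272 arrays. CD14 was the one called higher. Of 5 endothelial markers 3 were measured, with sums of 12.8 to 13.3 on LX2 control and 13.4 to 14.5 on LX2 CM272 arrays. The part of these markers in the members' values was not tested. Array medians ran from 4.19 to 4.54. The median gap between replicates was 0.13 in LX2 control, 0.26 in LX2 CM272, 0.15 in HepG2 control and 0.16 in HepG2 CM272.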

How the data were processed

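Total RNA from 8 samples, 2 in each of 4 groups, was hybridised to Affymetrix arrays, 1 array a sample. The deposited values are log2 expression values that the authors made with RMA, per the submitters' processing notes (its version is not given in the sources used here), and were used as deposited. RMA brings arrays towards a common distribution, so a shift shared by most genes would be partly removed. The deposited arrays still differed in their medians, from 4.19 (HepG2 control) to 4.54 (LX2 CM272). Of 48416 probe sets 32318 had no symbol. One probe set per symbol, that with the highest mean, entered the tests where log2 was over 4 on both arrays of some group, which left 12239 genes. Tests were two-sided, in 1 fit of limma 3.58.1 in R 4.3.3 over all arrays with a mean per group (4 residual and 5.47 prior degrees of freedom), with Benjamini-Hochberg adjustment over the 12239 genes and a threshold of 0.05. The script was tested on simulated data. Arrays give no counts, and their number limits the precision.

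The members and lists were chosen with earlier results of these data known. Named were all members, each list gene past the threshold and up to 4 others with the largest LX2 difference. Also named were the 5 nearest profiles to ZNF280A and USP17L12 outside the member list, neighbours past the threshold, EHMT2, EHMT1 and DNMT1. The array design's genome build is not given in the sources used here. Coordinates are those of the promoter table. Replicate numbers were not used to pair the samples in the main fit. The correlation of same-numbered deviations was 0.077 in LX2 and 0.069 in HepG2. With 2 arrays a group this cannot decide whether the samples were paired, and the labels do not say.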

Additional observations from a re-analysis of the deposited data

Results flagged for a closer look

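Among the members, 2 had both treated arrays above both controls in LX2 and below them in HepG2. Over all genes tested, 28.2% had both treated HepG2 arrays below both controls. The members were picked on LX2, so nothing is read from the count. In HepG2 alone ZNF280A did not pass limma's test (adjusted p = 0.502). The difference of the effect, HepG2 minus LX2, was -4.15 for ZNF280A and -0.74 for TRIM43. It was not tested, since both were picked on LX2, and TRIM43 was too dim to test.

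A signal lay outside the named genes: 15 probe sets with no symbol, numbered among the USP17L members, differed by over log2 4 between treated and control LX2 cells.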

How the results depend on the processing

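The 1031 calls in LX2 became 198 with each line fitted alone, and ranged from 55 (without the second LX2 control array) to 2492 (without the second LX2 CM272 array) when single arrays were left out. They were 97 without the first LX2 control array and 563 and 571 without the first and second HepG2 control arrays. With the replicate number as a block they were 931. The 1 call in HepG2 became 2 with no filter, 4 with a variance trend, 0 with each line fitted alone and 0 with all probe sets, and it stayed at 1 under the block. Leaving out single arrays gave 0 to 1, with 0 for each HepG2 and each LX2 control array. Of the other DUX4 targets, 0 called in LX2 became 1 with no filter and 0 to 1 without single arrays (1 without the second LX2 CM272 array). Of the silencing factors, 1 became 2 with a filter of log2 5, 2 with median centring, 2 with a variance trend, 0 with each line fitted alone and 0 to 6 without single arrays. Of the USP deubiquitinases, 9 became 0 with each line fitted alone, 5 with all probe sets and 0 to 14 without single arrays. The cause of these moves was not tested.

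Over 17 settings the LX2 difference ran from 4.53 to 4.86 for USP17L12, from 3.73 to 3.95 for ZNF280A, from 4.04 to 4.20 for USP17L15, from 1.82 to 2.07 for USP17L10 and from 0.95 to 1.09 for TRIM43B. The smaller LX2 differences moved by over 1.5 times: 0.34 to 0.72 for KHDC1L, 0.35 to 0.75 for TRIM43, 0.06 to 0.47 for ZSCAN4, -0.44 to -0.08 for LEUTX and 0.15 to 1.65 for the second USP17L9P probe set (16 settings). The HepG2 difference of USP17L10 ran from 0.64 to 1.33. Those of KHDC1L (-0.12 to 0.38), USP17L12 (-0.13 to 0.23) and LEUTX (-0.29 to 0.18) changed sign, and no member was called in HepG2 under any setting. No difference of a named gene that was called in the main fit changed sign under any of these settings. The LX2 difference of LIN28B, not called in the main fit, ran from -0.02 to 0.69. MBD2 was the second silencing factor under each of the 3 settings that gave 2. In HepG2, USP17L12, USP17L15, TRIM43B and TRIM43 lay under log2 4 on every array.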
